A study of Mus musculus with 30 samples.

Results

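The regions described are sites of open chromatin that were closed in both effector lineages of mouse CD4+ T cells. Of the 69316 ATAC-seq peaks in the table of 26 libraries, 3626 (5.23%) met the rule: the mean log2(score + 1) of the 2 effector Treg libraries lay at least 1.5 below that of the 2 central Treg libraries, and that of the 2 effector conventional T cell libraries at least 1.5 below that of the 2 naive libraries. A score is the authors' normalized read signal over a peak, and nearly all peaks (69142) were 401 bp wide. A difference of 1 on this scale is a 2-fold change for high scores and understates the change of low ones. The members were thus chosen by the scores of these 8 libraries, and their values there are given as a description. The tests below compare groups among the other 18 libraries, with 1 error estimate over all 26.

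ATAC-seq, in which a transposase cuts and tags open DNA, was applied to T cells sorted from lymph nodes and spleen, with 2 libraries per group; no label says that the pair came from separate animals, so a p-value here reflects the spread of 2 libraries, which may be technical. All cells carried an IRES-hCD2 reporter at Foxp3, which puts human CD2 on cells that transcribe Foxp3, on C57BL6/J (the strain is not given for the double knockout, and no ages are given). The gates for the 4 groups of the rule were CD4+hCD2+ for central Treg (cTreg) and effector Treg (eTreg) and CD4+hCD2- for naive cells (Tnaive) and effector cells (Teff), with CCR7hi and CD44lo among the gate's markers for cTreg and Tnaive and CCR7lo among those for eTreg and Teff. Wild-type (WT) Treg were sorted as CD4+hCD2+ and WT conventional T cells (Tconv) as CD4+hCD2-, without the naive or effector gates, and BATFKO Treg as CD4+hCD2+ from Foxp3-IRES-hCD2.Batf-/- mice. Foxp3R397W Treg, with a substitution in the DNA-binding forkhead domain, were CD4+hCD2+GFP- cells of animals carrying Foxp3R397W-IRES-hCD2 and Foxp3-IRES-GFP, and their controls carried Foxp3WT-IRES-hCD2 instead. The 4 DKO groups were cells of Foxp3KO-IRES-hCD2.Batf-/- origin, which lack both factors, sorted as CD4+hCD2+ cells that were CD45.2+CD45.1- and carried GFP and Thy1.1, after retroviruses that carried neither factor (mockRV), Foxp3 (Foxp3RV), BATF (BATFRV) or both (Foxp3BATFRV). The column names of all DKO libraries also carry the word vivo. The titles name the R397W pair and the DKO groups as omniATAC-seq and the others as ATAC-seq, which differ in lysis, transposase and amplification. No test below compares groups of different protocols as the titles give them.

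A second deposited table names some libraries differently, and this bears on every result. It shares 18 libraries with the table used here, recognised by their read counts over 4478 peaks with identical coordinates, and 12 of them carry another group's name there: the libraries named eTreg, cTreg, Tnaive and Teff here are named R397W control, R397W, Foxp3KO control and Foxp3KO there, and those named R397W control and R397W here are named cTreg and eTreg there. The Foxp3 peak at chrX:7583922-7584322 (mm10) scored 1.28 and 9.07 in the libraries named Tnaive here and 7.84 and 7.83 in those named Teff, against 435 and 370 in cTreg and 381 and 363 in eTreg. In the other table the columns named Tnaive scored 1030 and 1080 at that peak, and those named as the Foxp3KO control 1.08 and 8.01. The names of the 26-library table are the ones that place a high Foxp3 score in every Treg column and a low one in every column sorted as hCD2-, and they are used throughout, as the rule refers to that table. Foxp3KO cells are not described, since the libraries named so in the other table are those named Teff here. The Foxp3 peak does not separate the R397W pair from the cTreg and eTreg names, as all of these are Treg. No other value was used to tell them apart. The Batf peak at chr12:85686411-85686811 held 0 reads in both BATFKO libraries and 0 to 8 reads in the DKO libraries, against 117 or more in each of the others.

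Naive and central T cells are held in a resting, recirculating state. Transcription factors such as TCF-1 (Tcf7), LEF-1, BACH2, SATB1, FOXP1 and KLF2 help to maintain it, and receptors such as CCR7 and S1PR1 guide the cells into and out of lymph nodes. When T cells become effectors, many enhancers of these genes lose accessibility while others open. In Treg the forkhead protein Foxp3 is the lineage factor, and BATF, an AP-1 family member that binds DNA with JUN and IRF4, is known for its part in the effector Treg program.

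Few of these sites are promoters, but those that are can be shown base by base. Of the 3626 sites, 54 (1.49%) lay within 500 bp of a protein-coding start site, against 13.0% of all peaks. The RefSeq promoter windows (300 bases around the start, GRCm38.p6) that shared at least 150 bases with a member numbered 40, over 39 members. The 5 printed here were chosen after their values were seen: the promoters of Satb1 and Zfp2 lost signal in DKO cells given both factors, those of Adgra3 and Bfsp2 gained it, and that of Dapl1 was lower in WT Treg than in Tconv. They lie at chr17:51826539-51826838 (Satb1, minus strand), chr11:50916127-50916426 (Zfp2, minus strand), chr2:59484403-59484702 (Dapl1, plus strand), chr9:103449127-103449426 (Bfsp2, minus strand) and chr5:50058947-50059246 (Adgra3, minus strand). Each is written 5′ to 3′ along its gene, and capitals mark matches, on either strand, to the motifs searched.
Satb1: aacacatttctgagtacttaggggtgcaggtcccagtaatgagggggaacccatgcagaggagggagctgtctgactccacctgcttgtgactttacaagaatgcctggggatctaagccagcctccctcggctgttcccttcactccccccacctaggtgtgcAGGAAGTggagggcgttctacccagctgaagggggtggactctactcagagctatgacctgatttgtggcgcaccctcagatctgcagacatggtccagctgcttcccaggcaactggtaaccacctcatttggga
Zfp2: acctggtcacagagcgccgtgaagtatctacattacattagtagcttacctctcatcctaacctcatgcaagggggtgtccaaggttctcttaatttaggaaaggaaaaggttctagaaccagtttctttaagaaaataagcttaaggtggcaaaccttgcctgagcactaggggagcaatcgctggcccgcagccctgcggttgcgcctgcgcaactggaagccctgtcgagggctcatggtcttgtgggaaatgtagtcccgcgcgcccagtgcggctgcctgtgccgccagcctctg
Dapl1: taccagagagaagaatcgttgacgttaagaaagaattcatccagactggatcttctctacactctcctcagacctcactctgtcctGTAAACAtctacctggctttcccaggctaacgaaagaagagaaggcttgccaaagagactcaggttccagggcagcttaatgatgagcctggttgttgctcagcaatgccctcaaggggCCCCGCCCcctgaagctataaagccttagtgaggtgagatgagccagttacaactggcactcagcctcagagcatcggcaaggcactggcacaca
Bfsp2: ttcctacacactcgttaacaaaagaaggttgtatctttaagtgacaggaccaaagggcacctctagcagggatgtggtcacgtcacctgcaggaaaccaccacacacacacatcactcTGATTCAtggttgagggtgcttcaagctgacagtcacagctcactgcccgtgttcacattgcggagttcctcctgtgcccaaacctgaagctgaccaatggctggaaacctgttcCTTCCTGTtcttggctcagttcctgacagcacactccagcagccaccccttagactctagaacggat
Adgra3: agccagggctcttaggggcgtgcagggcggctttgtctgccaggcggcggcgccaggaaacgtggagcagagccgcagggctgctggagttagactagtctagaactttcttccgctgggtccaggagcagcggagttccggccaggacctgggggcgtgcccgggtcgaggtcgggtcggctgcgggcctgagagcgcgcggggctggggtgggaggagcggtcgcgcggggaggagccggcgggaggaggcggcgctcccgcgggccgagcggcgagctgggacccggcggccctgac
The capitals are an ETS match in Satb1, a forkhead and a KLF/SP match in Dapl1, and an AP-1 and an ETS match in Bfsp2; Zfp2 and Adgra3 have no capitals. The CTCF core was counted but is not capitalised. The letters searched were CTTTGA for TCF/LEF, ACAGGAAG or AGGAAGT for ETS, TGTGGTT for RUNX, TGTTTAC for forkhead, GGGCGGGG or GGGTGTGG for KLF/SP, TGANTCA for AP-1, GGGA and TTCC 2 bases apart for NF-kB, CCCTC for the CTCF core, and TTTC followed 4 bases on by the AP-1 letters for the BATF-IRF composite; the ETS strings overlap each other. ETS letters were in 20% of the 40 windows, against 11.4% of the 8700 windows over any peak and 11.1% of all 21238 windows. Forkhead letters were in 7.5%, 2.37% and 3.0%, TCF/LEF letters in 10.0%, 11.2% and 14.4%, and AP-1 letters in 5.0%, 4.37% and 6.99% of the same windows. KLF/SP letters, which are rich in G, were in 20%, 39.6% and 26.2%, and the median GC content was 55.5%, 62.0% and 56.3%. RUNX letters were in 0%, 3.64% and 4.71%, NF-kB letters in 0%, 1.46% and 1.45%, the composite in 0%, 0.069% and 0.0848%, and the CTCF core in 72.5%, 75.9% and 69.6%. A match describes the letters of the window and is no evidence of binding.

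By the rule, the median difference was -2.25 on the log2 scale between eTreg and cTreg and -2.38 between Teff and Tnaive. The mean log2 score over the members was 5.69 and 5.75 in the cTreg libraries, 3.28 and 3.35 in eTreg, 6.45 and 6.45 in Tnaive, and 3.84 and 4 in Teff. The deepest falls reached -5.78 in Treg and -6.24 in conventional cells, and 2012 sites fell further in conventional cells and 1614 in Treg. Among the 435 sites just inside the limit (smaller fall from 1.5 to 1.6) the median log2 score was 5.58 in cTreg, 3.76 in eTreg, 6.24 in Tnaive and 4.29 in Teff, and among the 537 just outside it (1.4 to 1.5) 5.74, 4.03, 6.15 and 4.36. Fewer cells with an open site and less opening per cell cannot be told apart in these bulk libraries.

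The sites differed in level between the resting populations. The level in cTreg lay a median of 0.66 below that in Tnaive on the log2 scale, while over all peaks the median difference was -0.03. At 1247 sites cTreg was lower by at least 1, and at 120 it was higher by at least 1. The effector states showed a like offset: eTreg lay a median of 0.59 below Teff, with 1213 sites lower by at least 1 and 186 higher by as much. These differences come from the libraries of the rule and carry no test.

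The 12 genes whose sites had the largest falls, by the smaller of the falls in the 2 lineages, were Lrrc20, Poc1b, Egfr, Sugct, Camk2a, Cnn3, Ppa2, Spsb1, Mad1l1, Chl1, Plaur and Wwox. The Sugct site (chr13:17082596-17082996) scored 76.4 and 59.5 in cTreg, 2.22 and 0 in eTreg, 181 and 155 in Tnaive, and 0 and 10.8 in Teff. The site in Plaur, which encodes the urokinase receptor (chr7:24467875-24468275), scored 212 and 204, 6.65 and 8.19, 524 and 553, and 46.2 and 21.5 in the same order. In DKO cells the Plaur site scored 115 and 169 with mockRV, 105 and 93.6 with Foxp3RV, 91.5 and 131 with BATFRV and 23.3 and 40.3 with both, so that both libraries with the pair of factors lay below the rest (both against mockRV -2.15, SE 0.30, limma). Of the 12 sites, 6 were called lower in that comparison: those of Egfr, Camk2a, Ppa2, Spsb1, Plaur and Wwox, by -1.14 (Spsb1) to -2.35 (Wwox). The other 6 gave no call, with changes from -0.77 (Sugct, adjusted p = 0.56) to 1.15 (Cnn3, adjusted p = 0.22).

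In the libraries the rule did not use, the members' mean level was lower in WT Treg than in Tconv, higher in R397W Treg than in their control, and lowest among the DKO groups in cells given both factors. The mean log2 score was 6.16 ± 0.066 (SD, n = 2) in Tconv, 5.10 ± 0.10 in WT Treg, 5.29 ± 0.14 in BATFKO Treg, 4.61 ± 0.074 in the R397W control and 5.22 ± 0.12 in R397W Treg. In DKO cells it was 4.36 ± 0.088 with mockRV, 4.25 ± 0.095 with Foxp3RV, 4.18 ± 0.043 with BATFRV and 3.59 ± 0.082 with both (SD, n = 2 in each group). Both Foxp3BATFRV libraries lay below the other 6 DKO libraries, both R397W libraries above both of their controls, and both Tconv libraries above both WT Treg libraries. The BATFKO libraries, at 5.19 and 5.39, lay just above the WT Treg libraries, at 5.03 and 5.17.

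**Figure D1:**
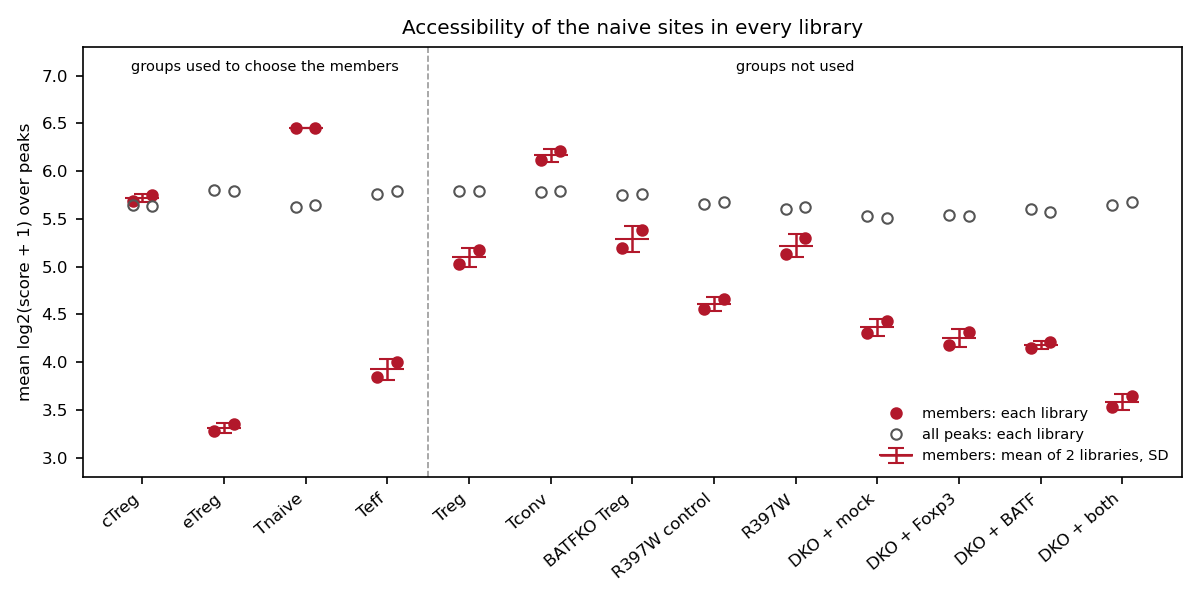
Mean log2(score + 1) over the 3626 sites in each of the 26 libraries, by group, with the mean over all 69316 peaks for scale; each point is 1 library. The 4 groups of the rule stand left of the dashed line, and bars give the mean and SD of 2 libraries. Among the DKO groups, the Foxp3BATFRV libraries are the lowest, at a mean of 3.59.

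The sites lay farther from start sites than peaks did as a whole. The median distance to the nearest protein-coding start site was 46.9 kb, against 24.3 kb for all peaks and 44.6 kb for the 6380 peaks that opened in both lineages by the same margin. Of the members, 53.1% lay in a protein-coding gene body away from its start, against 49.6% of all peaks, and 12.8% had no such gene within 100 kb, against 5.96%. The 3161 members with a gene in reach fell to 1727 genes, of which 1086 had a single member and 100 had 5 or more. A neighbouring member lay within 10 kb of 36.0% of them, and the corresponding share was 34.6% for the sites opened in both lineages.

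Genes with the most members were, in order, Bach2 (23 of its 66 peaks), Foxp1 (20 of 86), Satb1 (18 of 25), Tgfbr3 (16 of 27), Chl1 (15 of 16), and Lef1, Syne1, Tspan9 and Wwox with 13 each (of 40, 26, 16 and 72). BACH2 and FOXP1 are repressors that hold T cells in a quiescent state, SATB1 is a genome organiser of T cell development, and TGFBR3 is a co-receptor for TGF-β. Peaks of the 15 naive and quiescence transcription factors listed were members in 84 of 452 cases (18.6%), at 11 of the genes. Most of these members were at Bach2, Foxp1, Satb1 and Lef1 (23, 20, 18 and 13). Lymph node homing and egress genes held 26 members among 177 peaks (14.7%) and cell survival genes 8 among 93 (8.6%). TCR signalling genes held 17 among 255 (6.67%), cytokine receptors of naive cells 7 among 109 (6.42%) and Treg identity genes 10 among 196 (5.1%). Effector Treg genes held 6 among 246 (2.44%), where 79 peaks had instead opened in both lineages, and cell cycle genes 0 among 17. The share over all peaks was 5.23%, and none of these shares was tested.

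WT Treg were less open than Tconv at these sites. limma on log2 scores, adjusted over all 69316 peaks, called 1574 members lower in Treg and 40 higher, against 9.92% and 10.1% of all peaks; as shares of the members these are 43.4% and 1.10%. The median difference was -0.99 over the members and 0.01 over all peaks. Members made up 22.9% of all peaks called lower in Treg. Leaving out WT Treg library 1 gave 970 lower calls and leaving out Tconv library 2 gave 1038, and the higher calls fell to 22 and 19 without WT Treg library 1 or 2 and to 25 without Tconv library 1. Both WT groups were sorted without the naive gates, and the part of their shares of effector cells in this difference was not tested.

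Among the sites with the largest such differences, the one in the gene body of Aqr, which encodes an RNA helicase of the spliceosome (chr2:114136745-114137145), scored 20.8 and 11.2 in WT Treg and 495 and 452 in Tconv, and so was nearly closed in the former and open in the latter. It lay at 524 and 570 in Tnaive, 16 and 28.7 in cTreg, 92.3 and 73.4 in Teff and 3.32 and 5.85 in eTreg. The difference between WT Treg and Tconv was -4.86 (SE 0.44, adjusted p = 2.7e-09, limma), and the libraries did not overlap. Sites in the gene bodies of Zfp800 (-4.72, SE 0.39, adjusted p = 6.3e-10) and Ibtk (-4.57, SE 0.35, adjusted p = 1.7e-10) differed by a similar amount.

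A few members were higher in WT Treg. The site in Slc39a10, a zinc importer gene (chr1:46864134-46864534), scored 478 and 331 in WT Treg and 168 and 97.7 in Tconv, a difference of 1.62 (SE 0.26, adjusted p = 2.7e-05, limma). One of the 16 Tgfbr3 sites (chr5:107219883-107220283) scored 110 and 122 in WT Treg and 34.3 and 31.8 in Tconv (1.78, SE 0.30, adjusted p = 5.7e-05), while 9 others at that gene were called lower in Treg. At both sites every WT Treg library was above every Tconv library, and cTreg (403 and 468 for Slc39a10, 146 and 168 for Tgfbr3) was above Tnaive (92.0 and 81.6, 33.2 and 33.7).

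Loss of BATF alone moved almost none of these sites past the test. In BATFKO against WT Treg, limma called 1 member higher and 1 lower, against 0.062% and 1.43% of all peaks. The median difference was 0.20 over the members, 0.03 over all peaks and -0.55 over the sites opened in both lineages, of which 708 were called lower and 5 higher. At an unadjusted p under 0.05 the members split into 146 higher and 11 lower, and edgeR called 10 and 5. Quantile scaling gave 42 and 5, and limma with the library number as a block 19 and 3. The calls were unsteady in number: leaving out 1 library at a time gave 0 to 8 higher (8 without WT Treg library 2, 0 without WT Treg library 1 or BATFKO library 1) and 1 to 2 lower (2 without BATFKO library 2).

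The site called lower lay outside genes, 13.8 kb from the start of Rbm17 (chr2:11616814-11617214). It scored 99.0 and 77.6 in WT Treg and 25.5 and 39.2 in BATFKO Treg, and changed by -1.44 (SE 0.24, adjusted p = 0.00045, limma). In DKO cells it scored 155 and 208 with mockRV, 90.4 and 95.2 with Foxp3RV, 320 and 395 with BATFRV and 162 and 207 with both, so that it rose with BATFRV (0.98, adjusted p = 0.015) and fell with Foxp3RV (-0.95, adjusted p = 0.038). The Foxp3RV call was lost under 5 of 10 alternatives, with adjusted p from 0.011 to 0.37. The site called higher lay in Flt3 (chr5:147340943-147341343), which encodes a cytokine receptor of haematopoietic progenitors: 91.7 and 158 in WT Treg and 196 and 229 in BATFKO Treg (0.81, SE 0.21, adjusted p = 0.038, limma), a call lost under 5 of 11 alternatives, with adjusted p from 0.0028 to 0.94.

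In Foxp3R397W Treg the sites were more open than in their control. limma called 216 members higher and 0 lower, against 0.776% and 1.85% of all peaks, and these 216 were 40.1% of all 538 peaks called higher. The median difference was 0.59 over the members, with 8.52% below 0, against 0.03 over all peaks and -0.86 over the sites opened in both lineages. At an unadjusted p under 0.05, 1072 members were higher and 4 lower. The number of calls hung on the error estimate: edgeR on the recovered reads called 882 higher and 1 lower, and a fit of the compared groups alone 907 and 2. Leaving out a library gave 35 (without control library 1), 38 (control library 2), 46 (R397W library 1) and 28 (R397W library 2) higher calls.

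A site in Slit3, a guidance ligand gene (chr11:35326348-35326748), scored 19.9 and 15.4 in the control and 69.8 and 89.7 in R397W Treg (2.11, SE 0.37, adjusted p = 0.0016, limma). A site 43.2 kb from the start of Dapl1, a gene named for death-associated protein-like 1 and known for its expression in naive T cells (chr2:59527667-59528067), scored 12 and 5.35 in the control and 42.8 and 42.7 in R397W Treg. Its change was 2.27 (SE 0.43, adjusted p = 0.0033, limma). The Aqr site scored 7.97 and 7.36 against 28.7 and 42.4 (2.05, SE 0.44, adjusted p = 0.0075). At all 3 sites both R397W libraries were above both control libraries. The Aqr call was lost in 3 of 9 alternatives (adjusted p from 1.9e-05 to 0.14), and the Dapl1 call in 1 of 9, without control library 2.

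In DKO cells either factor alone moved few members. Foxp3RV against mockRV gave 80 lower and 24 higher, against 0.814% and 1.01% of all peaks, with a median of -0.14 (-0.03 over all peaks). BATFRV gave 38 lower and 13 higher, against 0.291% and 3.20% of all peaks, with a median of -0.21 (-0.04 over all peaks). The library numbers pair the DKO libraries, and with the number as a block limma called 177 lower and 65 higher with Foxp3RV and 100 lower and 20 higher with BATFRV. Without mockRV library 2 the lower calls fell to 10 and 12; the higher calls were 44 and 9 without Foxp3RV library 1 or 2 and 7 and 2 without BATFRV library 1 or 2. Fitted on the compared groups alone, Foxp3RV gave 21 lower and 0 higher calls, with 384 and 119 at an unadjusted p under 0.05, and edgeR on the recovered reads gave 74 and 12. For BATFRV edgeR gave 36 lower and 5 higher, and quantile scaling 31 and 3.

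Both factors together lowered the signal at many of the sites. Foxp3BATFRV against mockRV gave 1397 members lower and 69 higher (38.5% and 1.90%), against 10.5% and 12.9% of all peaks. The median change was -0.82 over the members, with 80.3% below 0, and -0.04 over all peaks; in edgeR's fit these medians were -0.96 and -0.11. The sites opened in both lineages changed by a median of 1.30 in the same comparison, with 3183 called higher and 90 lower. Leaving out a library gave 940 to 1260 lower calls, and 29 higher ones without Foxp3BATFRV library 2.

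The pair of factors also differed from each factor alone. Compared with Foxp3RV, 1127 members were lower and 49 higher (31.1% and 1.35%), against 7.54% and 10.6% of all peaks, with a median of -0.73. Compared with BATFRV, 1016 members were lower and 74 higher (28.0% and 2.04%), against 7.01% and 7.08% of all peaks, with a median of -0.63. The 3 comparisons of the pair share the Foxp3BATFRV libraries. Without Foxp3RV library 2 the lower calls against Foxp3RV were 658, and without BATFRV library 2 those against BATFRV were 594; the higher calls were 17 and 33 without Foxp3BATFRV library 2, and 78 against Foxp3RV without Foxp3RV library 1. With only the compared groups fitted, 444 were lower and 9 higher against Foxp3RV.

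**Figure D2:**
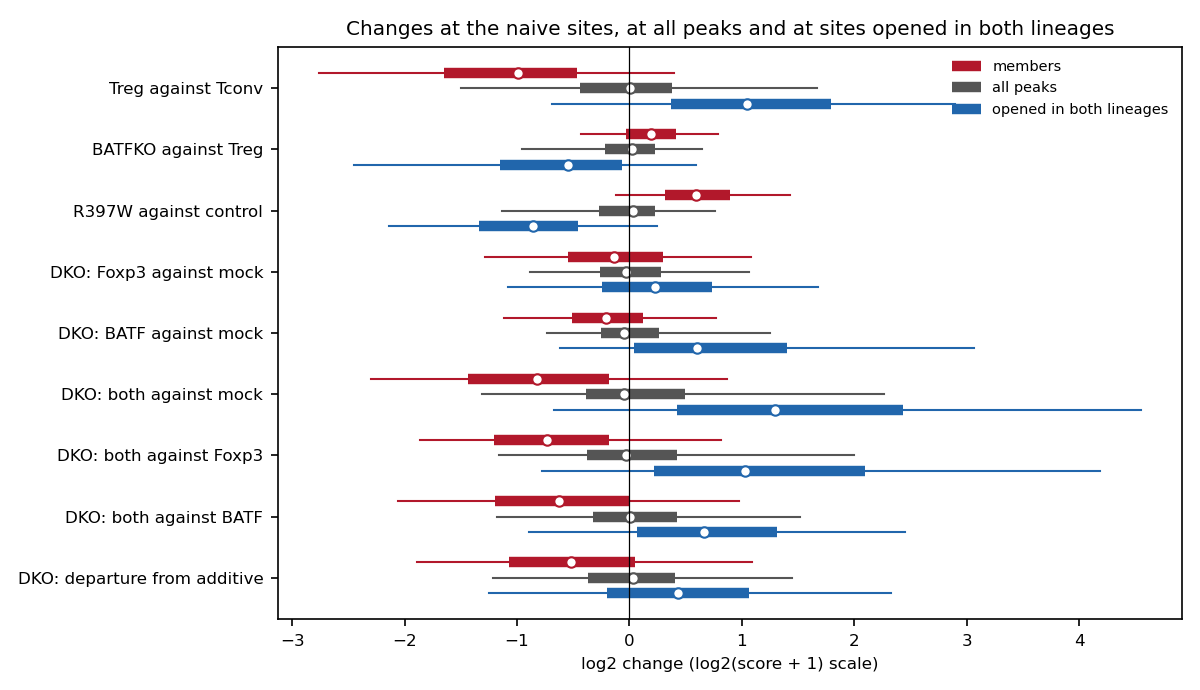
Log2 change in each comparison outside the rule for the 3626 sites, for all 69316 peaks and for the 6380 sites opened in both lineages. Points are medians and bars run over the 5th to 95th and the 25th to 75th percentile; the members' median is 0.59 in R397W Treg and -0.82 with both factors in DKO cells.

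**Figure D3:**
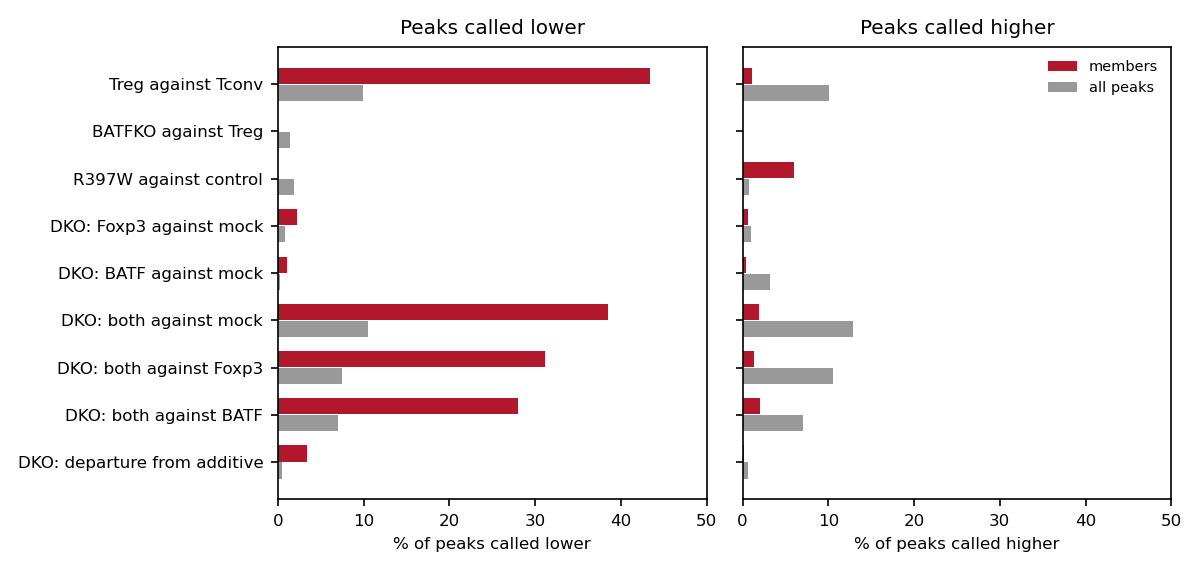
Percentage of the 3626 sites and of all 69316 peaks called lower or higher at an adjusted p under 0.05 (limma) in each comparison; bars start at 0. The members are called lower in 43.4% of cases between WT Treg and Tconv and in 38.5% with both factors, and higher in 5.96% in R397W Treg.

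Whether the effect of both viruses equals the sum of the effects of each was asked after the data were seen. The departure from the sum, on the log2 scale, was negative for 123 members and positive for 4, against 0.506% and 0.586% of all peaks, and those 123 were 35.0% of all 351 peaks with a negative departure. Its median was -0.52 over the members and 0.03 over all peaks, and with the library number as a block the counts were 299 and 18. These counts depended on single libraries: the negative ones were 52 without mockRV library 1, 219 and 26 without Foxp3RV library 1 or 2 and 23 without BATFRV library 2. The positive ones were 18 and 1 without Foxp3RV library 1 or 2, 8 and 1 without Foxp3BATFRV library 1 or 2 and 2 without BATFRV library 2. Fitted on the DKO groups alone, limma called 0 in either direction, with 551 negative and 49 positive at an unadjusted p under 0.05, and edgeR on all groups called 110 and 2.

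Single sites show what the departure looks like. A site in Thap4 (chr1:93735915-93736315) scored 66.4 and 91.9 with mockRV, 67.8 and 64.5 with Foxp3RV, 64.3 and 71.0 with BATFRV, and 1.94 and 11.5 with both. The change with both was -3.71 (SE 0.41, adjusted p = 6.5e-08), against -0.24 and -0.21 with Foxp3 or BATF alone, and the departure was -3.26 (SE 0.58, adjusted p = 0.007, limma). A site in Enpp1, which encodes an enzyme that hydrolyses extracellular nucleotides (chr10:24672914-24673314), scored 106 and 136, 99.0 and 93.6, 116 and 108, and 11.7 and 21.9 in the same order (departure -2.41, SE 0.35, adjusted p = 0.0021, limma). At both sites the 6 DKO libraries with 1 factor or none stood close together and both Foxp3BATFRV libraries stood below them. A Lef1 site chosen after its values were seen (chr3:131171196-131171596) scored 21.1 and 23.5, 39.8 and 46.0, 38.3 and 32.6, and 8.74 and 13.8, above mockRV with either factor and below it with both (departure -2.51, SE 0.39, adjusted p = 0.0026). The departures at Thap4 and Enpp1 lost their calls when the DKO groups were fitted alone (adjusted p = 0.12 for Thap4 and 0.088 for Enpp1).

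At other sites Foxp3 alone lowered the signal. The Aqr site scored 85.4 and 84.1 with mockRV, 3.23 and 16.9 with Foxp3RV, 59.4 and 78.7 with BATFRV and 3.88 and 4.61 with both. Its change was -3.30 with Foxp3RV (SE 0.44, adjusted p = 0.00013), -0.31 with BATFRV (adjusted p = 0.86) and -4.03 with both (SE 0.44, adjusted p = 4.1e-08, limma). The Dapl1 site at 43.2 kb scored 55.9 and 62.6, 5.38 and 10.7, 34.6 and 54.7, and 8.74 and 2.30 (Foxp3RV -2.80, SE 0.43, adjusted p = 0.00077; both -3.41, adjusted p = 6.7e-07). At both sites the libraries with Foxp3RV, alone or with BATFRV, lay below all libraries without it.

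The site in Selenof, a selenoprotein gene (chr3:144591336-144591736), scored 39.0 and 67.4 with mockRV, 6.45 and 20 with Foxp3RV, 43.3 and 38.4 with BATFRV and 1.94 and 3.45 with both. It fell with Foxp3RV (-2.07, SE 0.44, adjusted p = 0.011) and with both (-3.85, SE 0.44, adjusted p = 9.3e-08, limma), and also lay lower with both than with Foxp3RV alone (-1.79, adjusted p = 0.0037). Aqr, Dapl1 and Selenof were also lower in WT Treg than in Tconv, at -4.86, -3.63 (adjusted p = 3.6e-07) and -4.02 (adjusted p = 7.8e-08), and higher in R397W Treg, by 2.05, 2.27 and 1.65 (adjusted p = 0.035 for Selenof, lost under 4 of 9 alternatives).

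BATF alone lowered a smaller group. A site in Dync1li2, a dynein light intermediate chain gene (chr8:104436038-104436438), scored 60.1 and 73.3 with mockRV, 51.6 and 72.1 with Foxp3RV, 21.0 and 26.9 with BATFRV and 27.2 and 20.7 with both. The change was -1.44 with BATFRV (SE 0.26, adjusted p = 0.00049) and -1.45 with both (adjusted p = 8.6e-05), and -0.12 with Foxp3RV (adjusted p = 0.91, limma). The Flt3 site behaved likewise, at 199 and 239, 247 and 230, 111 and 114, and 115 and 100 (BATFRV -0.94, SE 0.21, adjusted p = 0.0049; both -1.02, adjusted p = 0.00041). At both sites the 4 libraries with BATFRV lay below the 4 without it.

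**Figure D4:**
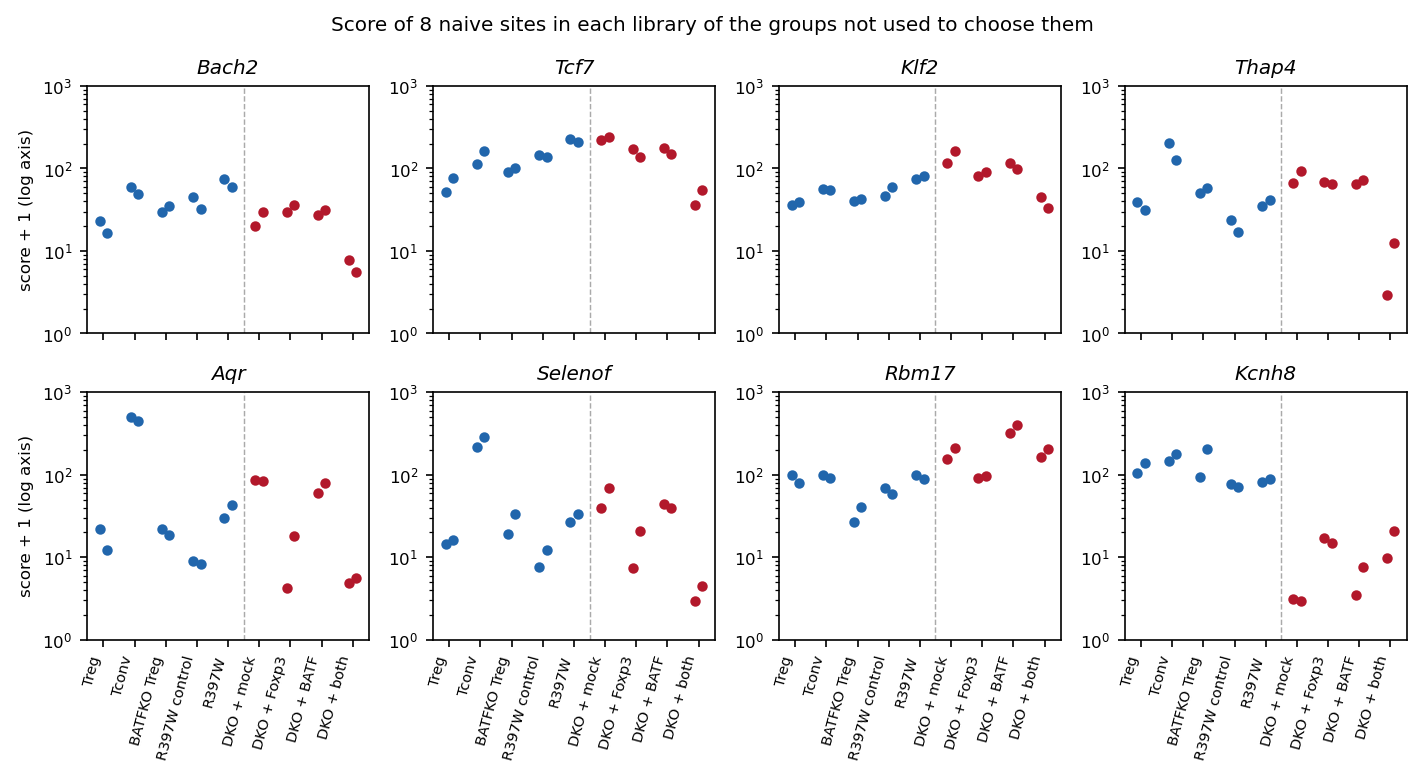
Score + 1 on a log axis at 8 sites, 1 panel per site, in each library of the groups outside the rule; points are single libraries. Among the DKO groups, right of the dashed line, Bach2, Tcf7, Klf2 and Thap4 are lowest with both factors, Aqr and Selenof are low in all 4 libraries with Foxp3RV, Rbm17 is highest with BATFRV, and Kcnh8 is lowest with mockRV.

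Among the naive and quiescence transcription factors, 54 of the 84 members were lower with both factors in DKO cells and 1 was higher, with a median change of -1.15. Most of the 54 lay at Satb1, Foxp1, Bach2 and Lef1 (16, 15, 11 and 7). In R397W Treg 8 of these 84 were higher, with a median of 0.65, and 27 were lower in WT Treg than in Tconv. These shares are 64.3% lower with both, 9.52% higher in R397W and 32.1% lower in WT Treg. Over all members they are 38.5%, 5.96% and 43.4%, and over all peaks 10.5%, 0.776% and 9.92%; the list's differences from the members were not tested. The Tcf7 site 26.6 kb from its start (chr11:52309435-52309835) scored 219 and 240 with mockRV, 173 and 138 with Foxp3RV, 174 and 149 with BATFRV, and 35.0 and 54.1 with both. It changed by -2.37 (SE 0.24, adjusted p = 9.3e-09, limma), and the other Tcf7 member by -2.28.

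The Bach2 site with the deepest fall by the rule (chr4:32326208-32326608) scored 19.0 and 28.3, 29 and 35.3, 26 and 30.7, and 6.80 and 4.61 in the same 4 groups. The change with both was -1.87 (SE 0.37, adjusted p = 0.00026, limma); 11 of the 23 Bach2 members were called lower with both. The Klf2 site 27.8 kb from its start (chr8:72291084-72291484) scored 117 and 161, 80.7 and 90.6, 114 and 97.0, and 44.7 and 32.2, a change of -1.83 (SE 0.26, adjusted p = 3e-06). The other Klf2 member changed by -0.48 and was not called. KLF2 drives expression of S1PR1. At these Tcf7, Bach2 and Klf2 sites with printed scores, both Foxp3BATFRV libraries lay below the other 6.

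At Satb1, all 18 members had a change below 0 with both factors, from -2.98 to -0.79 with a median of -1.25, and 16 were called lower (limma). The fall was not confined to the members: of the 7 other Satb1 peaks 6 were below 0 and 5 were called lower, the peak at -52.8 kb by -2.4 (SE 0.18, adjusted p = 4.7e-11). That peak was also higher in R397W Treg (0.87, adjusted p = 0.0057). The median score over the 18 was 36.9 and 49.9 with mockRV, 39.8 and 32.2 with Foxp3RV, 37.1 and 45.6 with BATFRV, and 12.6 and 9.79 with both. In R397W Treg the 18 changes ran from 0.19 to 1.38, with a median of 0.74, and 2 were called higher. The promoter printed above lies in the member at chr17:51826479-51826879, which scored 158 and 207, 146 and 170, 130 and 194, and 55.3 and 63.3 in the DKO groups (-1.6, SE 0.22, adjusted p = 2.9e-06). The members reached from 80.0 kb on one side of the start site to 93.8 kb on the other.

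**Figure D5:**
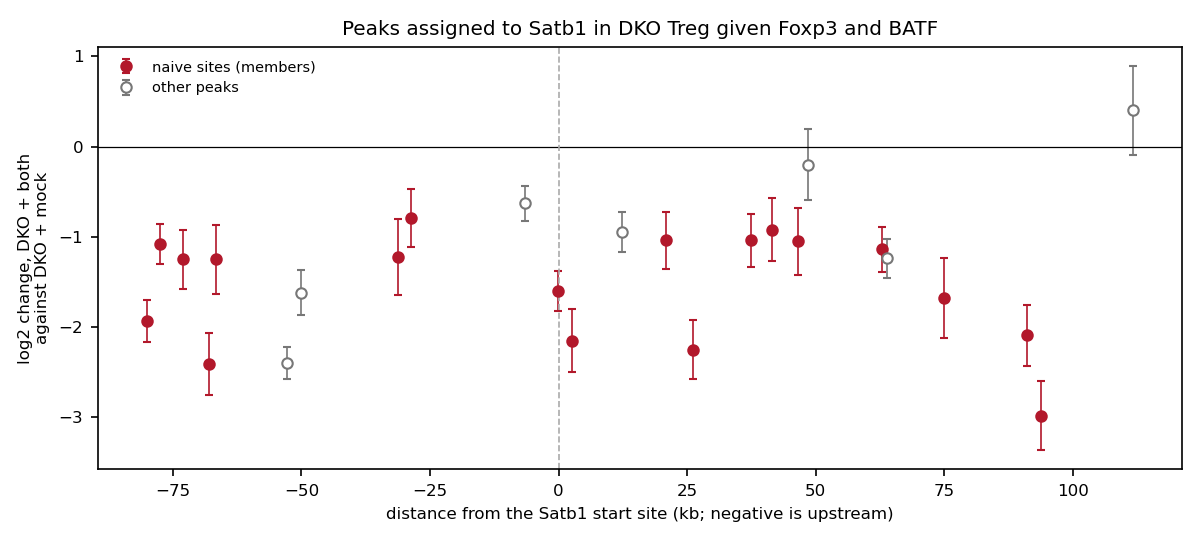
Log2 change with both factors against mockRV (± SE) at the 25 peaks assigned to Satb1, by distance in kb from its start site; the 18 members are set apart from the 7 other peaks. Every member lies below 0, between -2.98 and -0.79, as do 6 of the 7 other peaks.

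Foxp1 and Lef1 moved less evenly. Of 20 Foxp1 members 15 were lower and 1 higher with both factors, and 4 were higher in R397W Treg. Of 13 Lef1 members 7 were lower with both, and the one with the deepest fall by the rule (chr3:131195244-131195644) scored 16.9 and 18.6 with mockRV and 8.74 and 10.4 with both, a change of -0.83 that missed the threshold (adjusted p = 0.086). The deepest Foxp1 site likewise missed it (-1.21, adjusted p = 0.17). An Ikzf1 site 18 kb from its start changed by -1.09 (adjusted p = 0.023, lost under 5 of 10 alternatives), and sites at Ets1 (0.55, adjusted p = 0.24) and Foxo1 (0.22, adjusted p = 0.85) gave no call.

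Of the 26 members at homing and egress genes, 11 were lower with both factors (median -0.98), with 9 lower in WT Treg than in Tconv and 1 higher in R397W Treg. These shares, 42.3%, 34.6% and 3.85%, lie near or below those over all members (38.5%, 43.4% and 5.96%), so that the counts say nothing particular of homing genes. The Ccr7 site named by the rule (chr11:99145783-99146183) scored 154 and 192 with mockRV, 176 and 177 with Foxp3RV, 91.5 and 138 with BATFRV and 55.3 and 53.0 with both (-1.65, SE 0.33, adjusted p = 0.00036). A site 43.5 kb from S1pr1 (chr3:115666546-115666946), whose receptor lets cells leave lymph nodes, scored 34.8 and 26.4, 26.9 and 38.4, 34.6 and 18.2, and 9.71 and 3.45 (-2.18, SE 0.48, adjusted p = 0.00091). At both genes the Foxp3BATFRV libraries were below the other 6 DKO libraries.

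The same S1pr1 site scored 11.2 and 10.7 in the R397W control and 63.6 and 25.4 in R397W Treg (1.79, SE 0.48, adjusted p = 0.037, lost under 3 of 9 alternatives). CCR7 and CD44 were among the markers in the gates of the groups that chose the sites. The Ripor2 site, at a gene for an inhibitor of RhoA that acts in T cell migration, changed by -1.69 with both factors against mockRV (SE 0.49, adjusted p = 0.011, limma, lost under 3 of 10 alternatives).

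Survival genes held 8 members, of which 7 were lower with both factors (median -1.32), 87.5% beside 38.5% of all members, in a list too short to set apart. The Bcl2 site (chr1:106595249-106595649), in the gene for the anti-apoptotic protein BCL-2, scored 41.1 and 32.3 with mockRV, 15.1 and 21.5 with Foxp3RV, 33.4 and 22.1 with BATFRV and 0.971 and 6.91 with both. It changed by -3.24 (SE 0.44, adjusted p = 1.8e-06, limma), and both libraries with the pair of factors lay below the rest.

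Cytokine receptor genes held 7 members, 3 of them lower with both (median -0.89), a share of 42.9% near the members' 38.5%. The Tgfbr2 site (chr9:116163901-116164301), in the gene of the type II TGF-β receptor, scored 49.5 and 48.9 with mockRV, 41.9 and 35.3 with Foxp3RV, 38.3 and 27.8 with BATFRV and 14.6 and 12.7 with both (-1.78, SE 0.34, adjusted p = 0.00022). Sites at Il6st (-0.89, adjusted p = 0.18) and Il4ra (-0.73, adjusted p = 0.30) missed the threshold. TCR signalling genes held 17 members, 7 lower (median -0.71; 41.2%, likewise near that share), and the Txk site, at a kinase gene of the Tec family, did not pass (-0.31, adjusted p = 0.58). Treg identity genes held 10 members, 5 lower (median -0.68), and effector Treg genes 6 members, 1 lower (median 0.08).

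Several members ran against the rest. Kcnh8, a potassium channel gene, lay 95.5 kb from a site (chr17:52506784-52507184) that scored 2.11 and 1.96 with mockRV, 16.1 and 13.8 with Foxp3RV, 2.47 and 6.72 with BATFRV and 8.74 and 19.6 with both. It rose with Foxp3RV by 2.39 (SE 0.38, adjusted p = 0.00083) and with both by 2.22 (SE 0.38, adjusted p = 4.2e-05, limma). Its scores of 196 and 212 in cTreg came from the other protocol, so that no comparison is made with them. A site in Nr4a1, an immediate-early gene of TCR stimulation (chr15:101274370-101274770), scored 46.4 and 32.3, 57.0 and 50.7, 21.0 and 43.2, and 92.2 and 109 (1.35 with both, SE 0.36, adjusted p = 0.0051, lost without mockRV library 2 or Foxp3BATFRV library 2).

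The promoter members of Bfsp2 and Adgra3, printed above, also rose. Bfsp2, a lens intermediate filament gene, scored 15.8 and 29.3 with mockRV, 18.3 and 24.6 with Foxp3RV, 27.2 and 35.5 with BATFRV and 56.3 and 61.0 with both (1.40, SE 0.30, adjusted p = 0.00071). Adgra3, an adhesion receptor gene, scored 6.33 and 5.87, 10.8 and 18.4, 18.6 and 18.2, and 12.6 and 27.6 (1.48, SE 0.36, adjusted p = 0.0027, lost under 2 of 10 alternatives). The promoter members of Satb1 and Zfp2 fell; that of Zfp2 scored 145 and 97.8, 139 and 132, 118 and 104, and 57.3 and 58.7 (-1.03, SE 0.20, adjusted p = 0.00023). The Dapl1 promoter scored 13.4 and 16.3 in WT Treg and 84.9 and 63.6 in Tconv (-2.24, SE 0.45, adjusted p = 0.00045) and, in the separate DKO libraries, from 2.30 to 9.90. Of the 54 members at start sites, 13 were lower and 2 higher with both (median -0.48, against -0.82 over all members). Both shares lay between those over all members (38.5% lower and 1.90% higher) and those over all peaks (10.5% and 12.9%). These differences were not tested.

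Genes could also be singled out by how their members moved together, after the values were seen. All 7 members at P4ha2 and 5 of 7 at Pdlim4 were lower with both factors, all 7 at each gene were lower in WT Treg than in Tconv, and 3 and 2 were higher in R397W Treg. The median P4ha2 score was 128 and 133 with mockRV, 52.7 and 79.8 with Foxp3RV, 81.6 and 111 with BATFRV and 23.3 and 24.2 with both. Of the 12 Arpp21 members 2 were higher with both, and 1 had a change below 0: their median score was 6.85 and 11.2 with mockRV and 16 and 16.7 with both. At Chl1 the medians in DKO cells ran from 0 to 5.76 over the 8 libraries; 5 of its 15 members were called lower with both factors and 2 with Foxp3RV.

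The calls of 3 comparisons that share no library can be set side by side. Of the 216 higher in R397W Treg, 196 (90.7%) were among the 1397 lower with both factors, of which they were 14%; 38.5% of all members were in the latter list. Of the same 216, 207 (95.8%) were among the 1574 lower in WT Treg than in Tconv (13.2% of those, a list that holds 43.4% of all members). The lists lower with both and lower in WT Treg shared 908 sites, 65.0% of the former and 57.7% of the latter. Called members had higher signals: the median mean score was 88.0 for the 216, 57.5 for the 1397 and 46.0 for the 1574. It was 35.1 for all members and 48.6 for all peaks. The parts of signal strength and of the shared error estimate in the overlaps were not tested.

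Sites closed in only one lineage give a scale for these counts, with both factors against mockRV. Of the 521 sites closed in Treg alone 120 were lower and 24 higher (23.0% and 4.61%), with a median of -0.45. Of the 617 closed in conventional cells alone 62 were lower and 63 higher (10.0% and 10.2%), with a median of -0.09. Over all peaks 10.5% were lower and 12.9% higher, near the shares for conventional cells alone. In R397W Treg the medians were 0.23 and 0.29, with 8 and 1 called higher (1.54% and 0.162%, against 0.776% of all peaks). The differences between these sets were not tested.

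Some members lie at genes of other cells. Of 37 peaks at 8 CD8 and NK cell marker genes, 13 were members, and their mean score was 129 and 136 in Tnaive, 71.4 and 76.0 in cTreg, 22.4 and 24.2 in Teff and 13.3 and 12.2 in eTreg. In DKO cells it was 35.7 and 41.6 with mockRV, 30.4 and 32.5 with Foxp3RV, 29 and 34.6 with BATFRV and 18 and 22.1 with both. Myeloid marker genes held 7 members among 27 peaks, at Flt3 (5) and Itgam (2), B cell genes 2 among 19 and erythroid genes 1 among 11, while the genes of the T cell list held 1 among 40 and those of the Treg list 3 among 85. The part of other cells in these members was not tested.

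One locus stood out in number. In the 1.8 Mb that hold the T cell receptor alpha and delta segments (chr14:52427967-54224198), 61 of 111 peaks were members (55.0%). Their median score was 40.9 and 35.0 in Tnaive, 32.9 and 27.6 in cTreg, 3.48 and 2.93 in Teff and 3.32 and 2.34 in eTreg. With both factors 3 of the 61 were lower and 1 higher (median -0.29), and 5 were lower in WT Treg than in Tconv. Both shares of lower calls are below those over all members (38.5% and 43.4%) and over all peaks (10.5% and 9.92%). The V segments are near-identical copies that counting can split, so values there are uncertain.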

How the data were processed

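The authors deposited 2 tables of normalized signal scores per peak, in mm10 coordinates; the one with 26 libraries (13 groups of 2) was used, and the one with 22 served as an alternative. Columns were mapped to the series' 30 samples by their names, and 0 columns were left without a group. The 2 control columns of R397W name no sample, only the Foxp3WT genotype, which could also stand for the Foxp3KO controls. They were read as the R397W control because the 26 libraries include no Foxp3KO column. Every R397W result rests on this reading. The submitters' processing notes name 2 versions of edgeR (3.38.4 and 3.36.0), 2 of DiffBind (3.4.11 and 3.0.15), the peak caller MACS2 in version 2.2.7.1 and the aligner Bowtie2 in version 2.4.1; which step used which is not given in the sources used here. In every library 100% of the deposited signal values were whole multiples of 1 read (within 0.02), which gave 3716499 to 25462278 reads in peaks per library. For 1 peak the end was rebuilt from its start.

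The tests were limma 3.58.1 (R 4.3.3) on log2(score + 1), with a pseudocount of 1, all 26 libraries in 1 fit (13 residual degrees of freedom), a trended and robust error, and Benjamini-Hochberg adjustment over all 69316 peaks at 0.05. edgeR 4.0.16 (quasi-likelihood) on the recovered reads was an alternative, as were quantile scaling, a pseudocount of 5, a mean score of at least 20, the compared groups alone, a replicate block, the other table, rule thresholds of -1 and -2, and leaving out each library. Counts were simulated with changes in 100 peaks of each size, all drawn from peaks with a mean score above the table's median. The BATFKO comparison recovered 59 of the 2-fold and 99 of the 4-fold changes, with 5 false calls among 69316 peaks. The comparison of both viruses with mockRV recovered 62 and 100, with 7 false calls. Of the 3626 members only 1285 had a mean score above that median, so these rates do not describe the weaker members. Deviations of same-numbered DKO libraries correlated in every pair of groups (r from 0.147 to 0.215), so these numbers were taken to pair the libraries, and the blocked counts stand beside the results they move.

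Peaks were assigned to the nearest RefSeq protein-coding gene body within 100 kb, and a peak within 500 bp of a start counted as a start-site peak. The peaks of the 2 deposited tables were matched with bedtools 2.31.1 where they shared at least 0.5 of the length of both. Named sites were, 1 per gene, those at the 12 genes with the largest falls, the 5 largest called changes in each direction per comparison (mean score above the table's median, groups not overlapping), and the member with the largest fall at each of a list of naive T cell genes; others are named where said. Members, gene lists and comparisons were chosen with earlier results of these data known. The promoter table is not complete. One item withheld for evaluation is not reported here.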

Additional observations from a re-analysis of the deposited data

Results flagged for a closer look

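The effect of Foxp3RV and BATFRV together differed from the sum of their separate effects at 123 members with a more negative and 4 with a more positive value than the sum (limma, adjusted over all peaks). This is a difference between the effect of one virus in the presence and in the absence of the other, tested directly as an interaction. The counts rest on 8 DKO libraries and vary widely when 1 of them is left out, as given in the text; the cause was not tested.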

How the results depend on the processing

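Of 246 calls at named sites, recomputed 2549 times in all under the alternatives, 2126 kept their call, 423 lost it and none changed direction. The other members were followed as counts only. Counts below are members higher and lower. edgeR gave 10 and 5 for BATFKO, 882 and 1 for R397W, and higher counts of 12 for Foxp3RV, 5 for BATFRV, 21 for both against Foxp3RV and 2 for the departure. With only the compared groups fitted, the counts were 3 and 4 (BATFKO), 907 and 2 (R397W), 0 and 21 (Foxp3RV), 4 and 23 (BATFRV), 9 and 444 (both against Foxp3RV) and 0 and 0 (departure), and the higher counts 26 (both against mockRV) and 36 (both against BATFRV). A mean score of at least 20 gave higher counts of 2 (BATFKO), 7 (BATFRV) and 42 (both against mockRV). A pseudocount of 5 gave 7 and 4 (BATFKO), 346 and 1 (R397W) and 7 higher (BATFRV). Quantile scaling gave 42 and 5 (BATFKO), 5 and 24 (Foxp3RV), and higher counts of 79 (WT Treg against Tconv), 3 (BATFRV), 20 (both against mockRV), 15 (both against Foxp3RV) and 2 (departure). The other deposited table gave 92 higher for WT Treg against Tconv and 7 and 5 for BATFKO. The cause was not tested for these shifts.

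The replicate block gave 65 and 177 (Foxp3RV), 20 and 100 (BATFRV) and 18 and 299 (departure), and moved no other count of the DKO comparisons by over 1.5 times. Whether the numbers pair the WT Treg, BATFKO and Tconv libraries is less clear. Between WT Treg and BATFKO r was 0.162, above the lowest DKO value of 0.147. With Tconv r was 0.064 for WT Treg and 0.06 for BATFKO. The block gave 19 and 3 for BATFKO and 54 and 1763 for WT Treg against Tconv. For R397W no paired analysis was run. The sample titles number the R397W libraries and their controls differently, while the column names of both groups carry the same numbers. Whether those numbers pair the libraries was not tested.

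A rule threshold of -2 left 1795 members and one of -1 gave 6877. At -2 the counts were 13 and 815 (WT Treg against Tconv), 5 and 23 (BATFRV), 36 and 721 (both against mockRV), 19 and 581 (both against Foxp3RV) and 31 and 538 (both against BATFRV), with 0 lower for BATFKO, 109 higher for R397W, 35 lower for Foxp3RV and 64 negative departures; fewer members were counted. With the column names of the other table, an alternative added after seeing the data, as were the departure and the removal of the T cell receptor locus (which changed no count by over 1.5 times), 1285 peaks met the rule and 0 of them were members. Leaving out 1 library at a time gave 3429 to 3772 members. The higher counts ranged from 19 to 32 and the lower from 970 to 1195 for WT Treg against Tconv, 0 to 8 and 1 to 2 for BATFKO, 28 to 46 and 0 to 0 for R397W, 9 to 44 and 10 to 99 for Foxp3RV, 2 to 17 and 12 to 47 for BATFRV, 29 to 58 and 940 to 1260 for both against mockRV, 17 to 78 and 658 to 1013 for both against Foxp3RV, 33 to 63 and 594 to 853 for both against BATFRV, and 1 to 18 and 23 to 219 for the departure; the lone library left in a group is assumed to vary like the others. With 2 libraries a group, a change missed by the test is not shown to be absent, and low scores limit what can be seen of a further fall.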
